A study of Mus musculus with 367 samples.

Results

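In all, 10 macrophage genes were followed through single cells of healing mouse skin: Mrc1, Arg1, Nos2, Cd163, Retnla, Chil3, Il1b, Tnf, Csf1r and Csf1. They were chosen by name as 10 of the 50600 genes in the files, and all 10 were found. Large wounds, 1.5 by 1.5 cm on the back, had been made in Sm22-Cre;tdTomato mice of mixed strain background aged 3 to 8 weeks, and tissue of 2 to 3 mice per time point was taken on post-wounding day (PWD) 12, 15 or 21. Viable tdTomato-high cells were sorted, captured on the Fluidigm C1 microfluidic system and read as full-length RNA in 3 captures of day 12, 2 of day 15 and 2 of day 21. By their labels the groups share alleles and differ in day. They also differ in depth, with a median of 1602689, 957619 and 2163403 estimated fragments per stromal cell on days 12, 15 and 21. The Sm22 (Tagln) promoter drives the Cre, so a cell was marked if it or an ancestor had used that promoter, and animals were pooled within a time point. Nothing ties a capture to its own mouse, so p-values measure the spread between captures, which may be technical.

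Macrophages clear debris from a wound and signal to the cells that rebuild it. Their survival depends on CSF1, made largely by neighbouring mesenchymal cells, acting on the receptor CSF1R. By convention, Nos2, Il1b and Tnf are read as signs of a classical, inflammatory state, and Arg1, Retnla, Chil3, Mrc1 and Cd163 as signs of an alternative, repair-associated one, although wound macrophages often mix these programmes.

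Of 367 cells, 292 passed the filters on depth, gene number and mitochondrial share. Among them 26 cells were called myeloid, with Tyrobp and Fcer1g, genes of adaptor proteins of immune receptors, at 500 FPKM (fragments scaled to gene length and to the depth of the cell) or more. Another 260 cells were called stromal, with Col1a1 at 1000 FPKM or more or Rgs5 at 500 FPKM or more, and Tyrobp under 50 FPKM. The other 6 cells met neither rule. The myeloid cells were 2, 11 and 1 in the captures of day 12, 0 and 4 in those of day 15, and 5 and 3 in those of day 21. Their mean share of the kept cells over captures was 10.8% ± 11.9 (SD, n = 3) on day 12, 7.41% ± 10.5 (SD, n = 2) on day 15 and 11.2% ± 4.96 (SD, n = 2) on day 21. The difference among days was within the spread of captures (p = 0.905, exact permutation test over 210 assignments). The lower of the 2 gate genes was at 1029.64 FPKM or more in every kept myeloid cell and at 9.96 FPKM or less in every other kept cell. The median depth was 2089647 estimated fragments in myeloid and 1400312 in stromal cells.

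The myeloid label held for macrophage genes. All 19 genes of a macrophage identity list were detected, meaning above 0 FPKM, in at least 1 myeloid cell, and 16 of them in at least 13 of the 26 cells. Lyz2, the lysozyme of myeloid cells, and Cd68, a lysosomal protein, were found in 26 of 26 cells, and C1qb, a complement subunit, in 25 of 26. The neutrophil genes S100a8, S100a9, Retnlg, Ly6g, Camp and Ngp and the monocyte gene Ly6c2 were listed at 0 in all 26. Other genes of those marker lists were present: Cxcr2 and Csf3r in 21 of 26 cells each, at medians of 1.40 and 0.48 FPKM, and in 221 and 152 of 260 stromal cells. The monocyte markers F13a1, Vcan, Ccr2 and Plac8 were found in 22, 10, 7 and 4 of the 26 cells, F13a1 at a median of 131 FPKM. Their shares in stromal cells were 16.2, 89.6, 5.77 and 38.5%. In the limma comparison of classes described below, Plac8 and Vcan were lower in myeloid cells. The log2 differences were -5.85 (adjusted p = 0.0217) and -4.37 (adjusted p = 0.0366). With no filter on low values neither was called. Detection of these 2 genes therefore does not set the myeloid cells apart. Of the 26 cells, 4 also held stromal RNA, with Col1a1 between 2047.41 and 10805.3 FPKM. They were 1 of 11 cells in capture 2 of day 12, 2 of 4 in capture 2 of day 15 and 1 of 5 in capture 1 of day 21. Summed fibroblast markers ran from 11427.1 to 26735.9 FPKM in these 4 and from 2.85 to 236 FPKM in the other 22. Tagln, the gene whose promoter drives the Cre, was detected in 3 of these 4 cells and was listed at 0 in the other 22, while 182 of 260 stromal cells had it.

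The promoter stretches of 4 genes are shown as examples of both sides of the comparison: Mrc1, Il1b and Tnf were detected in a larger share of myeloid cells and Csf1 in a larger share of stromal cells. Each runs from base -250 to base -23 before the RefSeq gene start on GRCm38.p6, 5′ to 3′ on the strand of the gene. Mrc1 lies at chr2:14229164-14229391 on the plus strand, Il1b at chr2:129371162-129371389, Tnf at chr17:35202030-35202257 and Csf1 at chr3:107760492-107760719, these 3 on the minus strand. Capitals mark the TATA box TATAAA and the ETS core GGAAGT, which on the opposite strand reads as its reverse complement.
Mrc1: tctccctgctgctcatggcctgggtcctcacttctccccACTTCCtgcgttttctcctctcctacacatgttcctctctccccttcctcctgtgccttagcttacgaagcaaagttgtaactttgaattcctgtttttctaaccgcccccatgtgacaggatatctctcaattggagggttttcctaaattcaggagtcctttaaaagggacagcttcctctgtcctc
Il1b: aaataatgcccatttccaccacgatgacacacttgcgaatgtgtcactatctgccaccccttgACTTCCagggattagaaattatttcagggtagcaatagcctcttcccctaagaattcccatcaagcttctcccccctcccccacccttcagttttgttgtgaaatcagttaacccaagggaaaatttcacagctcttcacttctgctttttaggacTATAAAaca
Tnf: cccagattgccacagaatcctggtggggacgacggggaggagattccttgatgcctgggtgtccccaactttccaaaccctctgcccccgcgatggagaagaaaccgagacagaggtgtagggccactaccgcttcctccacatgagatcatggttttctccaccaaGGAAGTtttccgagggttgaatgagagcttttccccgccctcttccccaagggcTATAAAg
Csf1: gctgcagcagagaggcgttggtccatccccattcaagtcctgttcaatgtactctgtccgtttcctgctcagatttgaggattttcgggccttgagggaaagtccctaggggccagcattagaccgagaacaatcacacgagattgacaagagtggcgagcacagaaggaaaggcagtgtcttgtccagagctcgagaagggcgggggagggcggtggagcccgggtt
The ETS core was found at base -211 of Mrc1, -187 of Il1b and -83 of Tnf, and 17.3% of 32851 promoter stretches of this length hold it on either strand. The TATA box was found at base -31 of Il1b and -29 of Tnf, and 11.6% of promoters hold it. The letters TGANTCA (AP-1, in 6.30% of promoters) and TTGCNNAA (C/EBP, in 8.98%) were in none of the 4 stretches, and Csf1 held none of the 4 motifs. The motifs do not overlap each other in these stretches.

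Mrc1, the mannose receptor CD206, was found in most myeloid cells. It was detected in 24 of 26 myeloid cells (92.3%, exact 95% interval 74.9 to 99.1%) at a median of 395 FPKM, and in 4 of 260 stromal cells (1.54%), where its highest value was 78.9 FPKM. The myeloid means of the captures were 503, 425 and 581 FPKM on day 12, 70.8 FPKM on day 15, and 568 and 969 FPKM on day 21. All 4 myeloid cells of day 15, from a single capture, were between 9.87 and 143 FPKM, while the 12 positive cells of day 12 started at 234 FPKM and the 8 cells of day 21 at 166 FPKM. Day 15 therefore lay below the kept positive cells of both other days, though a day 12 cell of the myeloid gate left out by the filters was at 50.1 FPKM. The gate genes were also lowest in the day 15 capture. Mean Fcer1g was 1961 FPKM there against 4796 to 7171 FPKM in the other captures, and mean Tyrobp 2705 against 4118 to 7055 FPKM. The median depth of its myeloid cells, 898778 estimated fragments, was the lowest as well. The part of these in the Mrc1 values was not tested. In that capture 2 of the 4 cells held stromal RNA, at 69.4 and 143 FPKM of Mrc1, and the other 2 were at 9.87 and 60.6 FPKM. With 1 capture of day 15, a difference between days and a difference between captures cannot be told apart.

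**Figure D1:**
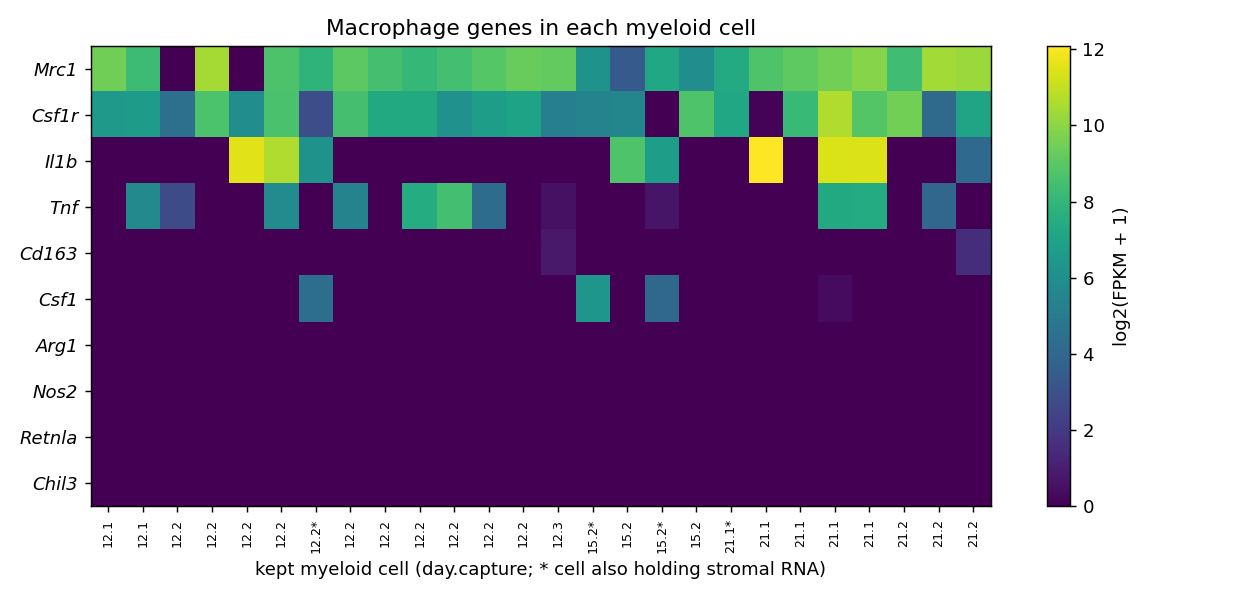
Values of the 10 genes (rows) in each of the 26 kept myeloid cells (columns, by day and capture), as log2(FPKM + 1) by colour, with an asterisk on the 4 cells also holding stromal RNA. Mrc1 and Csf1r fill nearly all columns, Il1b and Tnf some of them, and Arg1, Nos2, Retnla and Chil3 none.

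Csf1r, the receptor for CSF1, was found in 25 of 26 myeloid cells (96.2%, exact 95% interval 80.4 to 99.9%) at a median of 117 FPKM and up to 1594 FPKM. Its capture means were 94.5, 171 and 36.4 FPKM on day 12, 130 FPKM on day 15, and 498 and 293 FPKM on day 21. Both means of day 21 lay above those of the earlier days, with the highest cells of these 2 captures at 1594 and 730 FPKM. The capture medians were 94.5, 129 and 36.4 FPKM on day 12, 43.9 FPKM on day 15, and 291 and 132 FPKM on day 21. The lowest cell of capture 2 of day 21 was at 17.3 FPKM. Only weak signal was seen in one cell of day 21, at 0.08 FPKM, although that cell had 438 FPKM of Mrc1 and 13294 FPKM of Lyz2. Csf1r and Mrc1 were both detected in 23 cells, and the values of the pair had a Spearman rho of 0.32 over the 26 cells, which share captures and a depth range.

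Il1b and Tnf, which encode the inflammatory cytokines interleukin-1 beta and tumour necrosis factor, were found in some myeloid cells only. Il1b was at 0 in 17 of 26 cells and reached 100 FPKM or more in 7, with a highest value of 4335 FPKM. Tnf was detected in 12 cells, at 10 FPKM or more in 9, and reached 359 FPKM. In the captures of day 12 the Il1b means were 0, 420 and 0 FPKM, that of day 15 was 133 FPKM and those of day 21 were 1956 and 5.41 FPKM. Within day 21 the captures thus stood far apart, with 3 of 5 cells positive in the first and 1 of 3 in the second. The day 12 mean of 420 FPKM, over 11 cells, included a cell at 2932 FPKM without Mrc1 that is described below. Tnf means were 25.0, 59.8 and 0.45 FPKM on day 12, 0.16 FPKM on day 15, and 67.2 and 4.89 FPKM on day 21.

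The 2 cytokines were compared cell by cell. Both were detected in 4 cells, Il1b alone in 5, Tnf alone in 8 and neither in 9, and their Spearman rho was 0.039 over 26 cells. At higher limits, 3 cells had both Il1b at 100 FPKM or more and Tnf at 10 FPKM or more. Either cytokine was found beside Mrc1: 6 of the 7 cells with Il1b at 100 FPKM or more and 9 of 9 with Tnf at 10 FPKM or more had Mrc1, where 24 of all 26 did. Median Mrc1 was 421 FPKM in those 7 cells and 368 FPKM in the other 19. The remaining Il1b-high cell, in capture 2 of day 12, had 2932 FPKM of Il1b, no Mrc1, 1.49 FPKM of Lyz2 and 3041 FPKM of Cd209a, a lectin gene used as a dendritic cell marker. It was the only myeloid cell with Cd209a. Against depth, the Spearman rho with estimated fragments was 0.23 for Il1b and 0.15 for Tnf.

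**Figure D2:**
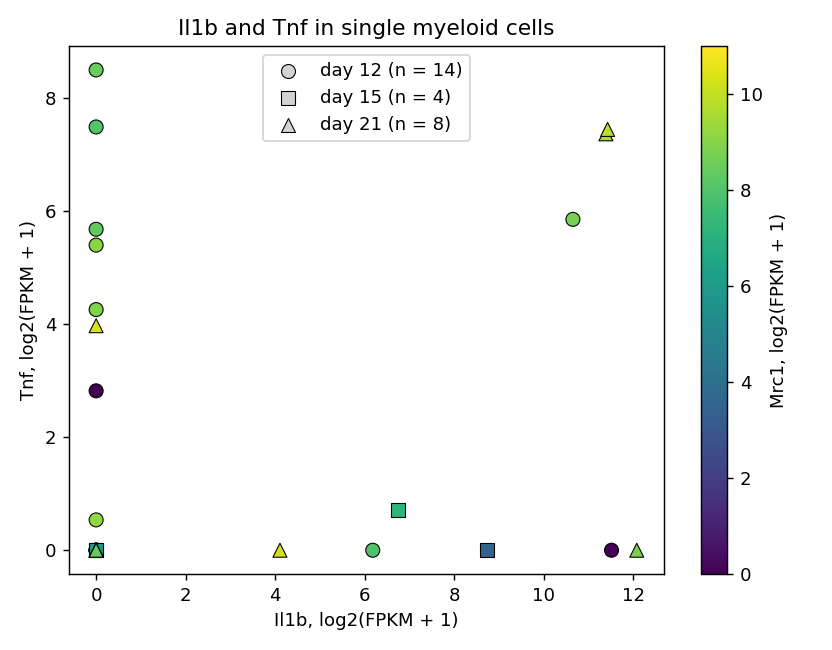
Il1b (horizontal) against Tnf (vertical) in 26 myeloid cells, both as log2(FPKM + 1), with day by marker shape and Mrc1 by colour. The 9 cells with neither lie on top of each other at the origin, 3 cells sit high on both axes and most of the rest lie along one axis.

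The other markers of an activation state were near or at 0. Cd163, a haemoglobin scavenger receptor, was found in 2 of 26 myeloid cells, at 0.75 FPKM in capture 3 of day 12 and at 1.99 FPKM in capture 2 of day 21. Nos2 (inducible nitric oxide synthase), Retnla (the secreted protein RELM-alpha) and Chil3 (a chitinase-like protein) were listed at 0 in all 367 cells. Arg1 (arginase 1, which splits arginine) was listed at 0 in the 26 myeloid cells, for which 3 counts of 26 set a limit of 11.5% and the exact 95% interval reaches 13.2%. In a myeloid cell of median depth, 3 fragments would be 1.22 FPKM of Arg1, 0.37 FPKM of Nos2, 1.16 FPKM of Chil3 and 4.79 FPKM of Retnla, a short gene. These limits cover counting error only. Arg1 was instead found in 4 stromal cells, at 477 and 16.8 FPKM in capture 2 of day 15 and at 8.32 and 0.58 FPKM in capture 1 of day 12, each with Tyrobp, Lyz2 and Cd68 at 0.

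**Figure D3:**
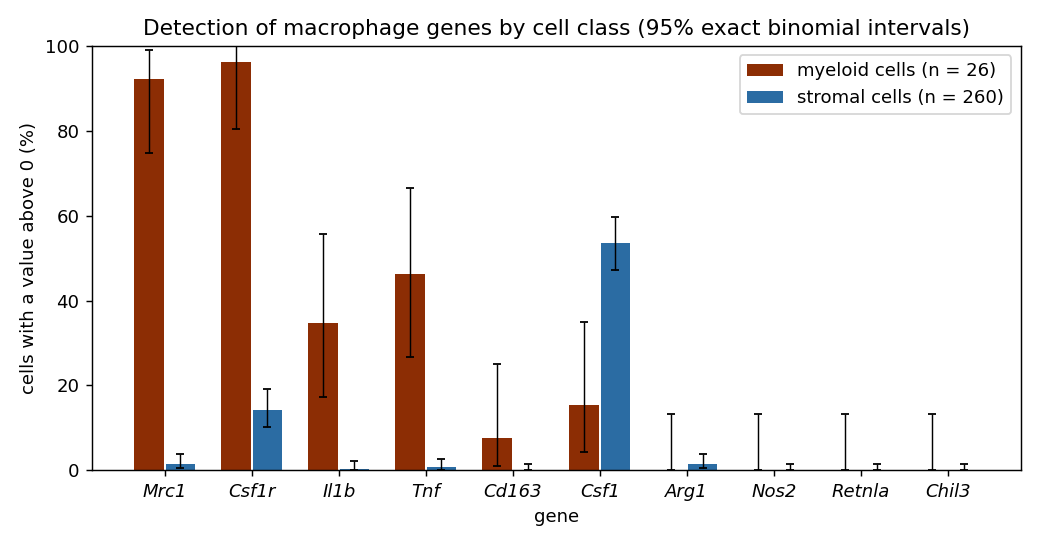
Share of the 26 myeloid and 260 stromal cells with each gene above 0 FPKM (bars from 0 to 100%, exact binomial 95% intervals for counting error). Mrc1, Csf1r, Tnf and Il1b stand higher in myeloid cells, Csf1 in stromal cells, and 4 genes have no bar in the myeloid class.

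Csf1, the ligand of Csf1r, had the opposite distribution. It was found in 139 of 260 stromal cells (53.5%, exact 95% interval 47.2 to 59.6%), many of them at low values. Of the 260, 110 were at 1 FPKM or more and 66 at 10 FPKM or more, and the median was 0.26 FPKM. Among myeloid cells, Csf1 was found in 4 of 26. Of these 4, 3 were the cells that also held stromal RNA, at 16.2, 19.6 and 80.3 FPKM, and the other was at 0.28 FPKM. Among the 22 myeloid cells without stromal RNA, Csf1 was thus detected in 1. Stromal cells with Rgs5 at 500 FPKM or more had Csf1 in 25 of 57 (43.9%), and those under that level in 114 of 203 (56.2%). Their highest value was 131 FPKM, against 414 FPKM in the cells with less Rgs5.

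Csf1 in stromal cells was compared between days. The share of stromal cells with Csf1 was 55, 55.9 and 35.5% in the captures of day 12, 46.5 and 56.5% in those of day 15, and 65.4 and 68.6% in those of day 21. Both captures of day 21 lay above the other 5, but the difference among days did not pass the exact permutation test over 210 assignments (p = 0.190). That test took all days together and did not set day 21 against the rest. Depth was also highest on day 21, at a median of 2110226 and 2251694 estimated fragments per stromal cell against 952831 to 2047655 in the other 5 captures. Among those 5, the shallowest, capture 2 of day 15, had the highest share, 56.5%, and the deepest, capture 1 of day 12, had 55%. The median was 1668096 in stromal cells with Csf1 and 1248175 in those without, and the Spearman rho of Csf1 with fragments was 0.12 over 260 cells. The part of depth in the result was not tested. Mean Csf1 was 11.8, 12.2 and 8.51 FPKM on day 12, 14.4 and 20.4 FPKM on day 15, and 18.5 and 33.6 FPKM on day 21. In limma, the change from day 12 to day 21 was 1.15 ± 0.60 (SE) on the scale of log2(mean FPKM + 1), with an adjusted p of 0.741, and from day 12 to day 15 it was 0.63 ± 0.60 (SE, adjusted p = 0.919). Cells with Rgs5 at 500 FPKM or more were 20.6 to 45.2% of stromal cells in the captures of day 12, 25.4 and 4.35% on day 15, and 30.8 and 0% on day 21, and their part in the Csf1 values was not tested. Among cells with less Rgs5 the capture means were 10.8, 15.0 and 9.71 FPKM on day 12 and 23.5 and 33.6 FPKM on day 21.

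**Figure D4:**
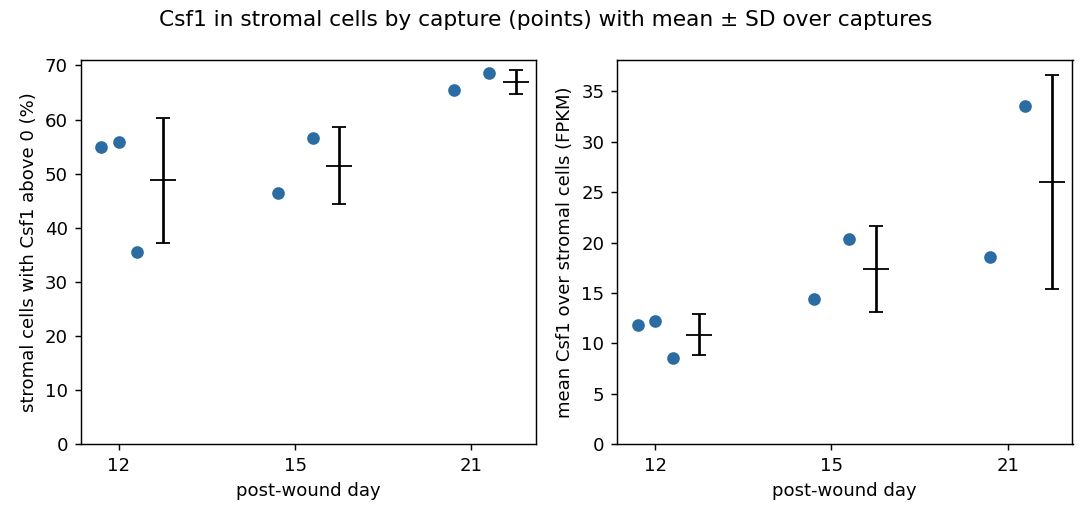
Csf1 in stromal cells of the 7 captures (points) by post-wounding day, as the share of cells above 0 FPKM (left) and the mean FPKM (right), with the mean ± SD over captures beside them. The captures of day 21 have the highest shares, 65.4 and 68.6%, and the difference between days had p = 0.190 (exact permutation test).

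Csf1r was also found in stromal cells, in 37 of 260 (14.2%), mostly at low values with a median of 2.62 FPKM and 13 cells at 10 FPKM or more. The highest, 221 and 106 FPKM in capture 2 of day 21, had Lyz2, Cd68 and Tyrobp at 0. The stromal capture means were 1.59, 0.081 and 0.014 FPKM on day 12, 3.28 and 7.29 FPKM on day 15, and 0.63 and 11.3 FPKM on day 21. The changes from day 12 were 2.07 ± 1.03 (SE) on day 15 and 1.66 ± 1.03 (SE) on day 21, on the log2(mean FPKM + 1) scale, with adjusted p of 0.863 and 0.778 in limma. The 3′ end of Csf1r overlaps Hmgxb3 on the other strand, and counting did not use strand as far as the sources state. Hmgxb3 was detected in 2 of the 37 stromal cells with Csf1r and in 20 of the 223 without.

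Class means were compared within the 4 captures that held at least 3 cells of both classes: capture 2 of day 12, capture 2 of day 15 and both captures of day 21. The classes were drawn from genes of the same cells, so the p-values describe groups made from these data. Of the 13216 genes whose mean reached 1 FPKM, limma called 7.07% at an adjusted p of 0.05 or less, 1.6% higher and 5.47% lower in myeloid cells. Of the 10 genes 6 passed the filter on low values, and 3 of these were called higher and none lower. With stromal means under 1 FPKM, 3 of the 6, Mrc1, Il1b and Tnf, passed the filter through their myeloid values. The count and the p-values of these genes are therefore descriptions only. The median difference of all genes tested was -1.05 on the log2(mean FPKM + 1) scale, and -1.26 after each cell was rescaled to a common total.

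Mrc1 was higher in myeloid cells by 7.80 ± 1.06 (SE) on that log2 scale (adjusted p = 0.00413), in 4 of 4 captures, with capture differences from 6.17 to 9.92. Il1b was higher by 6.82 ± 1.32 (SE, adjusted p = 0.0239) and Csf1r by 6.03 ± 1.10 (SE, adjusted p = 0.0198), each in 4 of 4 captures. Il1b differences ran from 2.68 in capture 2 of day 21 to 10.93 in capture 1 of that day. That of capture 2 of day 12, at 6.59, included the Il1b-high cell with Cd209a. Each of these calls was lost when a capture was left out. Without capture 2 of day 12 the adjusted p was 0.0584 for Mrc1 and 0.0708 for both Il1b and Csf1r. Without capture 1 of day 21 it was 0.0615 for Il1b and 0.0642 for Csf1r, and without capture 2 of day 15 it was 0.0581 for Il1b. With no filter on low values the adjusted p was 0.0870 for Mrc1, 0.20 for Il1b and 0.158 for Csf1r, at the same differences. With a pseudocount of 10, Il1b differed by 4.27 with an adjusted p of 0.0942.

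Tnf had a difference of 3.69 ± 1.07 (SE, adjusted p = 0.0591), above 0 in 4 of 4 captures but only 0.21 in that of day 15. Without the myeloid cells holding stromal RNA, which also removes the day 15 capture, it was 5.0 ± 1.09 (SE, adjusted p = 0.0297), past the threshold. The 2 myeloid cells of that capture without stromal RNA had Tnf at 0. With no filter on low values the adjusted p was 0.30. Tnf passed that filter through its myeloid values alone, as did Mrc1 and Il1b. Csf1 had a difference of -2.83 ± 1.09 (SE, adjusted p = 0.119), below 0 in 3 of 4 captures. Capture 2 of day 15, with 2 of 4 cells holding stromal RNA, had a Csf1 difference of 0.23, while the others were at -2.25, -4.21 and -5.11. Without those cells, which also removes that capture, Csf1 was lower by -4.34 ± 0.86 (SE, adjusted p = 0.0252). Arg1 had a difference of -1.12 ± 0.92 (SE, adjusted p = 0.436), which came from the stromal cells of the day 15 capture.

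**Figure D5:**
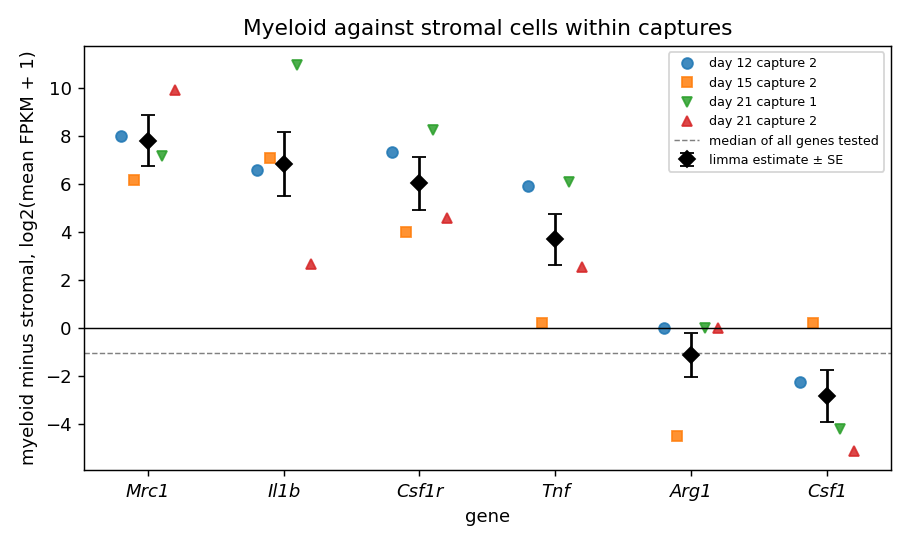
Myeloid minus stromal difference in log2(mean FPKM + 1) for the 6 genes tested, in each of 4 captures (coloured points), with the limma estimate ± SE (black) and the median of all genes tested (dashed, -1.05). Mrc1, Il1b and Csf1r are above 0 in all 4 captures, and Csf1 is below 0 in 3.

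Longer lists around the 10 genes were compared in the same way, against 1.6% of all genes called higher. Many of their genes had stromal means under 1 FPKM and passed the filter through the myeloid cells, 10 of 18 in the macrophage identity list, 7 of 15 in the alternative, 6 of 19 in the classical and 6 of 12 in the CSF1 list, so the counts are descriptions. With no filter on low values 9, 1, 1 and 0 genes of these lists were called higher, against 0.141% of all genes. In the macrophage identity list 14 of 18 tested genes were higher in myeloid cells and none lower, with a median difference of 7.65 against -1.05 over all genes. Lyz2 (12.15 ± 0.76 SE, adjusted p = 3.42e-05), C1qb (11.30 ± 0.86 SE, adjusted p = 0.000121) and Aif1, a calcium-binding protein of macrophages (10.71 ± 0.94 SE, adjusted p = 0.000328), differed most. Of the alternative activation list, 15 of 25 genes were tested and 5 were higher: Mrc1, Stab1 (8.34 ± 0.98 SE, adjusted p = 0.00175), a scavenger receptor, Trem2 (7.08 ± 1.00 SE, adjusted p = 0.00550), a lipid-sensing receptor, Fcgr2b and Folr2. Its median was 2.62. Of the classical activation list, 19 of 25 were tested and 4 were higher: Il1b, the chemokines Ccl4 (11.32 ± 0.95 SE, adjusted p = 0.000243) and Ccl3 (9.60 ± 1.11 SE, adjusted p = 0.00171), and the co-stimulatory gene Cd86. Il6 was lower, being found in 52 of 260 stromal cells and 2 of 26 myeloid cells, and the median of the list was 0.40.

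Members of both lists were thus found in the same myeloid cells, and each list also held genes at 0. Stab1 was detected in 26 of 26 cells, Igf1 and Fcgr2b in 25, Cd86 in 22, Ccl3 in 21, Trem2 in 20 and Ccl4 in 18. Igf1 was also detected in 87.7% of stromal cells and was not called higher, so its detection does not set the myeloid cells apart. Stab1 and Fcgr2b were detected in 31.2 and 26.2% of stromal cells, and Cd86, Ccl3, Trem2 and Ccl4 in 0.77% or less. Besides Arg1, Retnla and Chil3, the alternative list had Ccl17, Ccl22, Ccl24, Lyve1, Pdcd1lg2 and Ear2 at 0 in the 26 cells. Besides Nos2, the classical list had Il12a, Il12b, Il23a, Ccl5 and Acod1 at 0. Of 12 tested genes of the CSF1 axis and colony-stimulating factors, 4 were higher and none lower: Csf1r, the transcription factor Irf8 (4.17 ± 0.84 SE, adjusted p = 0.0262), Csf2rb and Csf3r (3.66 ± 0.97 SE, adjusted p = 0.0487). Il34, the second ligand of CSF1R, was found in 44 of 260 stromal cells (16.9%) and in 1 of 26 myeloid cells, a cell that also held stromal RNA. Csf2 was listed at 0 in both classes, and Csf3 in all but 1 stromal cell.

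Myeloid cells of day 21 were also set against those of day 12, by capture means with at least 1 cell. No gene of 10443 was called by limma (0%), with 420 at an unadjusted p under 0.05. The difference was 2.17 ± 0.93 (SE) for Csf1r, 3.90 ± 3.99 (SE) for Il1b, 0.57 ± 0.51 (SE) for Mrc1 and 0.60 ± 2.25 (SE) for Tnf, with adjusted p of 0.814 for the first 3 and 0.965 for Tnf. For Csf1 it was -0.45 ± 0.74 (SE, adjusted p = 0.867), and the other 5 genes did not pass the filter. The fit had 3 residual degrees of freedom, so the absence of calls does not show that the days were alike. Without capture 2 of day 21, 273 genes were called, and without capture 2 of day 15, 16 were. Between days in stromal cells no gene of 13879 was called in any of the 3 comparisons (0%), with 821, 973 and 773 genes at an unadjusted p under 0.05. With 4 residual degrees of freedom, this too does not show that the days were alike. Of the 10 genes, Csf1, Csf1r and Arg1 were tested there. Arg1 differed by 2.15 ± 1.18 (SE, adjusted p = 0.871) on day 15 and -0.10 ± 1.18 (SE, adjusted p = 0.999) on day 21 from day 12, and by -2.25 ± 1.29 (SE, adjusted p = 0.902) on day 21 from day 15. From day 15 to day 21, Csf1 differed by 0.52 ± 0.66 (SE, adjusted p = 0.955) and Csf1r by -0.41 ± 1.13 (SE, adjusted p = 0.995). Without capture 1 of day 21, 3 genes were called between days 12 and 21.

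The genes whose values over the 26 myeloid cells were most like those of Mrc1, of 9335 compared by Spearman rho, were Fcer1g (0.75), which is a gate gene, Ap1b1 (0.70) and Pf4 (0.68). For Il1b they were Ptpn12 (0.72), Zfp36 (0.69) and Olfr967 (0.67), for Tnf Gm47641 (0.75), Hells (0.73) and Fbxl18 (0.72), and for Csf1r Gm47712 (0.73), Gm31258 (0.72) and Gm43679 (0.71). For Csf1 over the 260 stromal cells, of 18964 genes, they were Itgb5 (0.34), Adamts5 (0.32) and Pim1 (0.31), weak values in sparse data. The cells share captures and depth, and these are descriptions of rank order.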

How the data were processed

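The RNA of 367 single cells was measured in 7 captures. The authors aligned the reads with Bowtie 1.0.0 and computed expression with RSEM against mm10 and release 13 of the GENCODE mouse genes. What they deposited is FPKM per gene and cell. No counts were used. The label of the third day 12 capture names the matrix of the second, and its cells were taken from the matrix that matches their number and names. Gene symbols came from GENCODE release 21, which held 50376 of the identifiers and not the other 224. No 2 cells had identical values.

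Fragments per cell were estimated from the steps between FPKM values, a procedure tested on simulated data. Cells with fewer than 159000 fragments, more than 11000 genes or over 15% mitochondrial FPKM were dropped. Doublets had been excluded by imaging according to the study, and no caller was run. The FPKM were averaged over the cells of a class in each capture, and limma 3.58.1 in R 4.3.3, with a variance trend, was run on log2(mean FPKM + 1) for those genes whose mean reached 1 FPKM. A fold on that scale understates the change of low genes. Adjusted p-values are those of Benjamini and Hochberg over all genes tested, two-sided, with a threshold of 0.05. Between classes, capture was a block, and a capture needed 3 or more cells of each class. The fits were tested on simulated data. Hardly any planted changes were recovered between days in myeloid cells, and between classes few but the largest were. Shares were compared by exact permutation over captures, with the sum of squares between days as the statistic, which has no direction. Alternatives varied the pseudocount, filters, scaling, gates, cell minimum and block, and left out each capture.

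The 10 genes, the lists and the rules were chosen with earlier results of these data known. Those of the 10 genes that passed the filter were named in every comparison, with at most 3 genes of each other list that passed the threshold and differed most, and the 3 nearest by Spearman rho. Other genes named, and the cells described singly, were chosen after their values were seen.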

Additional observations from a re-analysis of the deposited data

Results flagged for a closer look

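Arg1 stood apart in capture 2 of day 15. Its myeloid minus stromal difference there was -4.49 on the log2(mean FPKM + 1) scale, while the other 3 captures were at 0, which set that capture apart. With the others exactly at 0 any other value would have been set apart, so this is a description. It was the only one of the 6 genes examined in this way. Both classes were at 0 for Arg1 in the other 3 captures, and a single stromal cell at 477 FPKM carried most of the value.

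For Csf1 the direction of the class difference was not the same on all days. The mean difference was -3.06 over the 3 captures of day 12 and -4.66 over the 2 of day 21, but 0.23 in the single capture of day 15. The difference between days was not tested. In the day 15 capture both myeloid cells with Csf1, at 16.2 and 80.3 FPKM, also held stromal RNA.

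Cells left out by the cell filters held the same genes. Of these 75 cells, 18.7% had Mrc1, 14.7% Csf1r, 12.0% Csf1, 8.00% Tnf and 6.67% Il1b, above the 4% that a count of 0 allows, a limit that any gene in 4 of the cells passes. Among the 292 kept cells, 29 had Mrc1, 63 Csf1r, 144 Csf1, 14 Tnf and 10 Il1b. The 75 cells left out included 6 in the myeloid gate, all 6 with Mrc1 and Csf1r, and 3 each with Il1b and Tnf. Outside that gate Mrc1 was found in 8 of the cells left out, among them a day 12 cell at 4174 FPKM with 28487 estimated fragments, 1055 genes and Tyrobp at 0. Arg1, Nos2, Cd163, Retnla and Chil3 were at 0 in all 75.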

How the results depend on the processing

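The number of genes called between myeloid and stromal cells, 935, depended on the processing. It was 1471 with a pseudocount of 0.1 and 120 with 10 (92 higher, 28 lower), 36 with no filter on low values (35 higher, 1 lower), 1629 after rescaling to a common total, 324 with no cell filter, 1508 without myeloid cells holding stromal RNA, 308 with stromal cells of the Rgs5 gate alone, 1474 with no replicate block and 3417 with at least 1 cell of both classes. With at least 2 cells of both classes and no mixed cells, an alternative chosen after seeing the data, it was 3381. Leaving out 1 capture gave 62 to 213. Mrc1, Il1b, Csf1r and Tnf stayed higher and Csf1 and Arg1 lower under every one of these alternatives where they were tested. The range of Mrc1 was 5.11 to 9.82, and its adjusted p was at most 0.0870. Tnf passed the threshold in 7 of 15 alternatives besides captures left out, and Csf1 in 3.

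Between days in stromal cells, averaging log2 values over cells gave 11 genes for day 15 and 52 for day 21 against day 12, where the means gave 0. Leaving out 1 capture gave 0 to 3 genes for day 21 against day 12 and 0 to 273 in myeloid cells. Captures of the same number did not deviate together (correlations of -0.0051 to 0.028 over genes), so the numbers were not taken as pairs, and a fit with the replicate block called 0 genes between days in either class. The permutation p was 0.190 to 0.517 for Csf1 detection and 0.600 to 0.983 for the myeloid share.

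Between days 12 and 21 in myeloid cells, the difference of Tnf turned from 0.60 to -0.022 with averaged log2 values, to -0.99 with the replicate block and with at least 2 cells, and to -0.90 with at least 2 cells and none mixed, an alternative chosen after seeing the data. With 1 capture left out it ran from -1.16 to 2.37, that of Il1b from -0.22 to 8.03 and that of Csf1 from -0.70 to 0.039. In stromal cells the Csf1r difference of day 21 against day 15 ran from -1.87 to 1.05. The causes were not tested. The 26 myeloid cells lay in 6 captures, 2 of them with 1 or 2 cells, which limits what can be called between days.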
